A study of Mus musculus with 8 samples.

Results

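The genes described here were 8 enzymes of cholesterol synthesis, Hmgcs1, Idi1, Fdps, Fdft1, Sqle, Lss, Cyp51 and Dhcr7, picked by name from the 24849 genes listed in each expression file. Expression was given as FPKM, a fragment density scaled for transcript length and library size, so that levels of different genes could be set side by side. 7 of the 8 genes had values above 0 and belonged to the 13214 genes tested, those with a mean above 1 FPKM in at least 1 condition. Hmgcs1, the synthase that makes HMG-CoA at the start of the pathway, was listed at 0 in all 8 libraries in both of its rows, which lie on an unplaced contig of chromosome 13. All 147 rows on unplaced contigs were listed at 0 throughout, so these files give no level for Hmgcs1.

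Polyadenylated RNA of mouse embryonic stem cells (mESCs) was sequenced in 4 conditions with 2 samples each, namely wild type and Pcgf5-/- at day 0 and at day 6 of neural differentiation. All cells came from the MPI-II line, whose strain is given as 129S2/SvPas. Cells of day 0 were grown on feeder cells with serum, LIF and the 2i inhibitors CHIR99021 and PD0325901. Cells of day 6 were kept in N2B27, a serum-free medium that supports neural differentiation, so effects of time, of medium and of the loss of feeders cannot be told apart. Pcgf5 encodes a subunit of a Polycomb repressive complex, and the mutant was made with TALENs, cutting nucleases directed at exon 2, together with donor cassettes for puromycin and neomycin resistance. Single colonies were picked, and the sources used here do not give how many clones the libraries represent. A change in a bulk sample can come from fewer cells of a type or from less RNA per cell, and these cannot be told apart.

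Cholesterol is built from acetyl-CoA through mevalonate, isoprenyl diphosphates, squalene and lanosterol. When sterols in the endoplasmic reticulum are low, SCAP escorts the membrane-bound SREBP transcription factors to the Golgi, where proteases release the active part that turns on the synthesis genes, while INSIG proteins hold the complex back when sterols are high. Serum carries lipoprotein cholesterol that cells can take up, and the developing brain relies largely on cholesterol made in place.

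Promoter sequence was looked up because sterol-regulated promoters often pair a sterol regulatory element with nearby NF-Y and Sp1 boxes. RefSeq windows from 250 bases before to 50 after the start of transcription (mouse build GRCm38.p6) were at hand for 5 of the 8 genes, namely Hmgcs1, Idi1, Lss, Cyp51 and Dhcr7, the last with 3 windows. Both strands were searched for TCACCCCAC, a core of the sterol regulatory element, for its looser form TCACNCCAC, which contains the first, for CCAAT (NF-Y), for GGGCGG (Sp1) and for CACGTG (E-box). TCACCCCAC occurred in Hmgcs1 only, starting at base -137 from the transcription start, and it occurred in 0.614% of the 27025 genes with a window, against 1.44% for the looser form. CCAAT was present in 5 of 5 genes, against 41.1% of all genes. In Dhcr7 it lay in only 1 of the 3 windows (chr7:143829964-143830263), from which the stretch below is taken. GGGCGG was also present in 5 of 5 genes, against 38.2% of all genes, and CACGTG in Dhcr7 alone, against 8.09% of all genes. The CACGTG of Dhcr7 lay in another of its windows (chr7:143823149-143823448), which held no CCAAT. The stretches that follow run 5′ to 3′ on the strand of the gene, and show the sterol element that Hmgcs1 alone held and, for the other 4 genes, CCAAT boxes (ATTGG where the box lies on the other strand), each in capitals. The CCAAT boxes of Hmgcs1 lie outside the stretch shown. They lie at chr13:119690194-119690242 (Hmgcs1, plus strand), chr13:8885553-8885604 (Idi1, plus strand), chr10:76531535-76531555 (Lss, plus strand), chr5:4104714-4104734 (Cyp51, minus strand) and chr7:143830121-143830177 (Dhcr7, plus strand). A match of these letters is a description of the sequence and not evidence that a factor binds there.
Hmgcs1: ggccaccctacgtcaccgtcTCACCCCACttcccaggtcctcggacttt
Idi1: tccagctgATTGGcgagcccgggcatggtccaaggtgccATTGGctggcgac
Lss: atgctctgATTGGccgagctc
Cyp51: gtccgccaCCAATctggtcct
Dhcr7: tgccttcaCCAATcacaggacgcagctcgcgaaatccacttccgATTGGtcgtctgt

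The files hold no fragment counts, so the number of fragments behind an FPKM value is not known here. Pcgf5 itself had FPKM values of 5.18 and 3.63 (wild type) and of 1.28 and 1.84 (Pcgf5-/-) before differentiation. On day 6 these were 9.16 and 5.06 for wild type against 0.669 and 0.457 for the mutant, lower by 2.33 (log2 fold change -2.33, standard error 0.28, adjusted p = 0.00421). Markers of pluripotent cells summed to between 1451 and 1514 FPKM in the libraries of day 0, to 318 and 198 FPKM in wild type of day 6 and to 761 and 701 FPKM in Pcgf5-/- cells of day 6. Markers of neural progenitors summed to between 214 and 303 FPKM in the libraries of day 0. At day 6 they summed to 678 and 708 FPKM in wild type and to 291 and 283 FPKM in Pcgf5-/- cells. In Pcgf5-/- cells 7 of these 8 markers were higher at day 6 and 1 was lower, against 21.9% and 10.4% of all tested genes. The lower one was Vim, whose mean went from 241 to 145 FPKM. Markers of the fibroblast feeders ranged from 156 to 550 FPKM at day 0, highest in Pcgf5-/- replicate 2, and from 11.7 to 32.8 FPKM at day 6. Markers of primitive endoderm reached 29.6 FPKM in replicate 1 of wild type at day 6 and at most 8.18 FPKM elsewhere. The part of these cell markers in the values below was not tested.

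Most of the measured cholesterol synthesis genes rose from day 0 to day 6 in both genotypes. The 7 measured genes summed to between 291 and 329 FPKM in the 4 libraries of day 0 and to between 420 and 501 FPKM in the 4 libraries of day 6. In wild type 6 of the 7 were higher at day 6 and none was lower at an adjusted p under 0.05 in limma, a linear model fitted across all tested genes, where 34.2% of all genes tested were higher and 16.2% lower. In the mutant 6 of the 7 were again higher and none lower, where 21.9% of all genes were higher and 10.4% lower. The 7 genes had a median log2 fold change of 0.66 in wild type, against 0.22 over all tested genes, and of 0.56 in Pcgf5-/- cells, against 0.13. Lss rose most in both genotypes. Fdft1 was the exception in wild type and Dhcr7 in Pcgf5-/- cells.

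**Figure D1:**
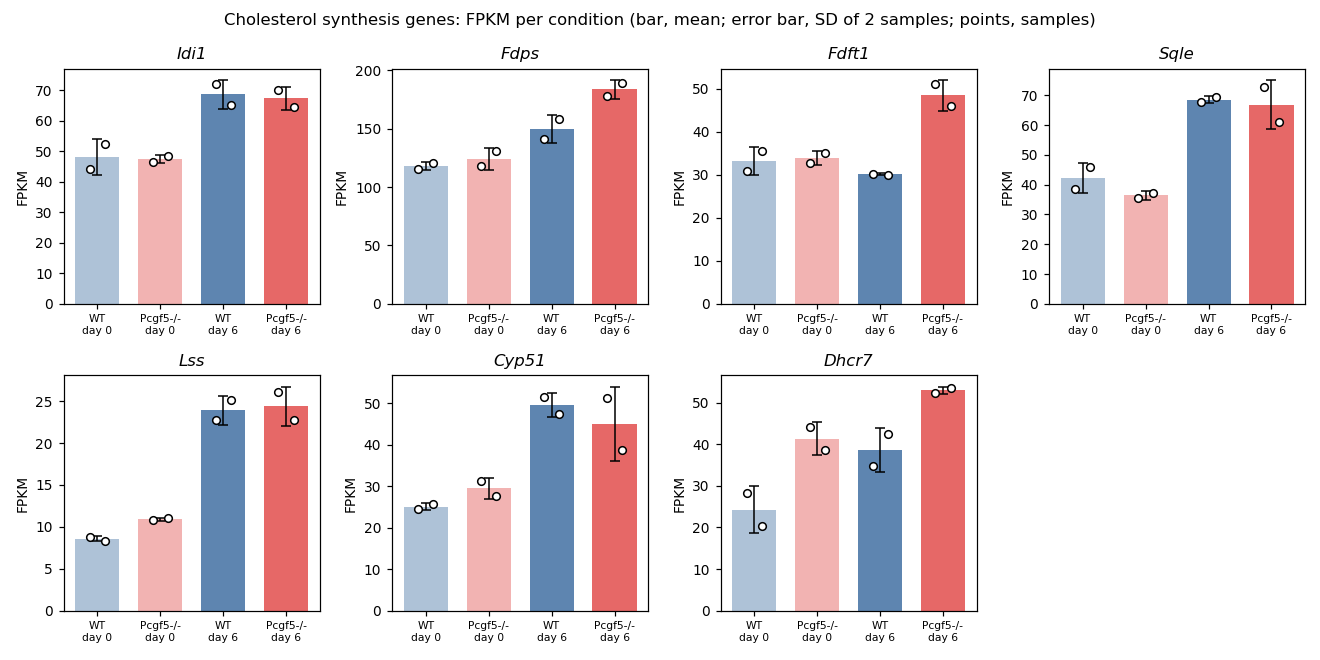
FPKM of the 7 measured cholesterol synthesis genes in each condition, with bars for the mean, error bars for the SD of 2 samples and points for the samples. The points of day 6 lie above those of day 0 in the same genotype for each gene except Fdft1 in wild type. Over all tested genes, both samples of day 6 lay above both samples of day 0 in 49.5% in wild type and 43.3% in Pcgf5-/- cells.

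Part of these counts depended on how the libraries were scaled. With each library centred on its median log2 value, 2 of the 7 genes were higher at day 6 in wild type, 1 was lower (Fdft1), and 3 of the 7 were higher in Pcgf5-/- cells. Among all 13214 tested genes 2745 were higher in wild type and 1960 in Pcgf5-/- cells with that centring. That centring turned the median over all tested genes in wild type from 0.22 to -0.15 and that of the 7 genes from 0.66 to 0.30, and it moved the share of higher genes among all genes called from 67.8% to 39.7% in wild type and from 67.9% to 48.1% in Pcgf5-/- cells. With quantile normalization the shares were 51.3% and 53.1%, and 6 of the 7 genes were called higher in each genotype. Without any one of the 4 wild-type samples, fewer of the 7 genes were called higher in wild type, with Fdps and either Idi1 or Dhcr7 lost each time. In the mutant fewer of the 7 were called higher without any one of its 4 samples, among them replicate 2 of day 0, the library with the most feeder marker. Each of these omissions also left fewer of all tested genes called higher in the same genotype.

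The early enzymes make the isoprenoid units. Idi1, the isomerase that turns isopentenyl into dimethylallyl diphosphate, lies at chr13:8884852-8891642 (mm9). It was at 44.1 and 52.3 FPKM in wild type at day 0 and at 72.0 and 65.2 FPKM at day 6. In cells without Pcgf5 it was at 46.6 and 48.3 FPKM at day 0 and at 70.0 and 64.6 FPKM at day 6. Each sample of day 6 lay above each sample of day 0, and the genotypes overlapped at both days. The log2 fold change was 0.50 (SE 0.13, adjusted p = 0.0118 in limma) in wild type and 0.50 (SE 0.13, adjusted p = 0.0209) in Pcgf5-/- cells. The wild-type call was lost with median centring (0.14) and without replicate 1 of day 0 (adjusted p = 0.0687) or of day 6 (adjusted p = 0.0714). The Pcgf5-/- call was lost with median centring and without any one of the 4 Pcgf5-/- samples (adjusted p from 0.054 to 0.101).

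Fdps, which joins these units into farnesyl diphosphate and lies at chr3:88897510-88905889 (mm9), was the most abundant of the 7 genes in all 4 conditions. Its values in wild type were 116 and 120 FPKM at day 0 and 141 and 158 FPKM at day 6. In Pcgf5-/- cells they were 118 and 131 FPKM at day 0 and 178 and 189 FPKM at day 6. The samples of both days lay apart in each genotype, and at day 6 both Pcgf5-/- samples lay above both wild-type samples. The log2 fold change over the 6 days was 0.34 (SE 0.12, adjusted p = 0.0392 in limma) in wild type and 0.56 (SE 0.12, adjusted p = 0.00851) in Pcgf5-/- cells. The wild-type call was lost in 9 of 18 alternative settings, among them the omission of any wild-type sample (adjusted p from 0.0565 to 0.215) or of either Pcgf5-/- sample of day 0 (adjusted p = 0.0529 and 0.0531), and in a further one, median centring, the value turned to -0.025 (adjusted p = 0.868). The Pcgf5-/- call was lost without replicate 1 of day 0 (adjusted p = 0.0649).

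Squalene is made and then oxidised by the next enzymes. Fdft1, squalene synthase, takes farnesyl diphosphate into the sterol branch and lies at chr14:63763988-63798415 (mm9). It was at 30.9 and 35.4 FPKM in wild type at day 0 and at 30.3 and 30.0 FPKM at day 6. In the mutant it was at 32.7 and 35.1 FPKM at day 0 and at 51.0 and 45.9 FPKM at day 6. The wild-type samples of day 6 lay just below those of day 0, and both Pcgf5-/- samples of day 6 stood above the other 6 samples. The log2 fold change over the 6 days was -0.13 (SE 0.13, adjusted p = 0.42 in limma) in wild type and 0.50 (SE 0.13, adjusted p = 0.0191) in Pcgf5-/- cells. The difference between these changes was 0.63 (SE 0.18, 95% interval 0.22 to 1.04, adjusted p = 0.0914), which did not pass the threshold across all genes. The Pcgf5-/- call over the 6 days was lost with median centring (0.32) and without replicate 1 of day 0, replicate 2 of day 0 or replicate 1 of day 6 (adjusted p = 0.103, 0.0519 and 0.0927). The annotated locus of Fdft1 overlaps that of Ctsb, a lysosomal protease gene, by 773 bases, and whether strand was used in counting is not given in the sources used here. Ctsb was at 35.7 to 48.9 FPKM at day 0 and at 16.8 to 22.0 FPKM at day 6, with the mutant values under the wild-type values at day 6, and its part in the Fdft1 values was not tested.

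Sqle, squalene epoxidase, is a rate-limiting enzyme of the pathway and lies at chr15:59146647-59162748 (mm9). It was at 38.6 and 45.8 FPKM in wild type at day 0 and at 67.6 and 69.5 FPKM at day 6. In cells without Pcgf5 it was at 35.4 and 37.3 FPKM at day 0 and at 72.8 and 61.0 FPKM at day 6. The days lay far apart in both genotypes, whereas the genotypes overlapped at day 6. Over the 6 days the log2 fold change was 0.69 (SE 0.14, adjusted p = 0.00363 in limma) in wild type and 0.86 (SE 0.14, adjusted p = 0.00299) in Pcgf5-/- cells, and the second call was kept in all 18 alternative settings. The first was lost with median centring (0.33, adjusted p = 0.0619).

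Lss, lanosterol synthase, closes the first sterol ring system and lies at chr10:75994350-76019884 (mm9). It had the lowest level of the 7 genes in all 4 conditions and the largest change. In wild type it was at 8.81 and 8.37 FPKM at day 0 and at 22.7 and 25.2 FPKM at day 6. In Pcgf5-/- cells it was at 10.8 and 11.01 FPKM at day 0 and at 26.1 and 22.8 FPKM at day 6. Mean FPKM was 2.79 times as high at day 6 as at day 0 in wild type and 2.24 times as high in Pcgf5-/- cells, and no sample of day 0 came near those of day 6. The log2 fold change was 1.38 (SE 0.14, adjusted p = 0.000147 in limma) in wild type and 1.09 (SE 0.14, adjusted p = 0.00123) in Pcgf5-/- cells. Both calls were kept in all 18 alternative settings. The overlapping gene 4930483K19Rik was at no more than 0.210 FPKM in any library.

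Cyp51 encodes the demethylase that removes a methyl group from lanosterol and lies at chr5:4080674-4104697 (mm9). It was at 24.5 and 25.7 FPKM in wild type at day 0 and at 51.6 and 47.5 FPKM at day 6. In the mutant it was at 31.4 and 27.7 FPKM at day 0 and at 51.4 and 38.7 FPKM at day 6. The samples of both days lay apart, and the Pcgf5-/- samples of day 6 differed most from each other. Over the 6 days the log2 fold change was 0.95 (SE 0.16, adjusted p = 0.00149 in limma) in wild type, kept in all 18 alternative settings, and 0.58 (SE 0.16, adjusted p = 0.0241) in Pcgf5-/- cells. The second call was lost with median centring, with only the compared conditions in the fit, and without replicate 1 of day 0, replicate 2 of day 0 or replicate 1 of day 6 (adjusted p = 0.0597, 0.114 and 0.121).

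Dhcr7, the last reductase on the way to cholesterol in 1 branch of the pathway, lies at chr7:151009072-151034315 (mm9) and had the largest difference between genotypes at day 0. On day 0 its FPKM values were 28.3 and 20.2 in wild type against 44.2 and 38.5 in the mutant. On day 6 they were 34.8 and 42.4 in wild type against 52.4 and 53.6 in the mutant. Pcgf5-/- samples lay above wild-type samples at both days, and samples of day 6 lay above those of day 0 in both genotypes. The log2 fold change over the 6 days was 0.66 (SE 0.18, adjusted p = 0.0153 in limma) in wild type and 0.35 (SE 0.18, adjusted p = 0.165) in Pcgf5-/- cells. The difference between these changes was -0.31 (SE 0.25, adjusted p = 0.502). The wild-type call was lost with median centring (0.30), with the replicate number as a block for each day (0.42, adjusted p = 0.0617) and without replicate 2 of day 0 (adjusted p = 0.088) or of day 6 (adjusted p = 0.102).

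**Figure D2:**
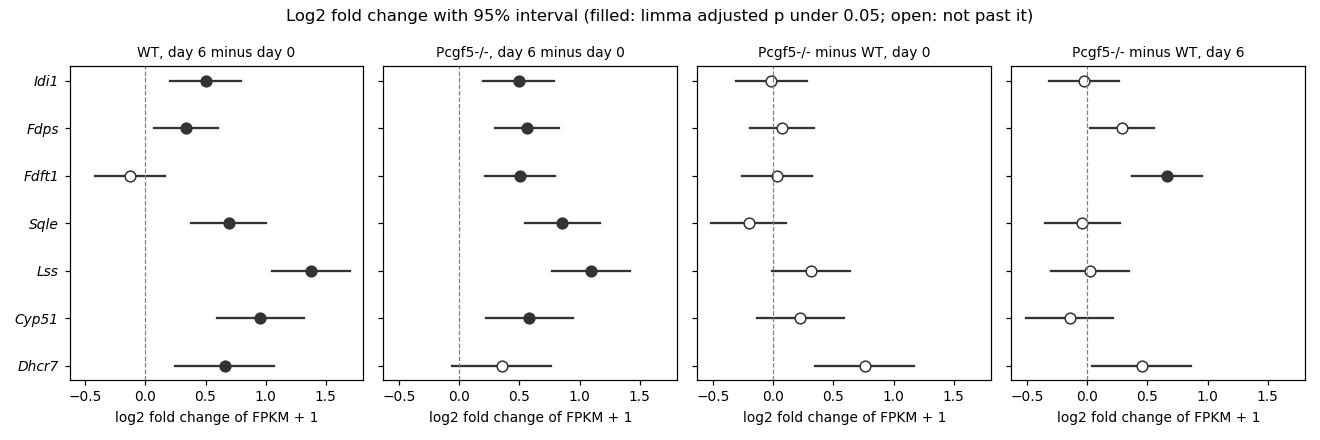
Log2 fold change of FPKM + 1 for each measured gene with its 95% interval, for day 6 minus day 0 in each genotype and for Pcgf5-/- minus wild type at each day, with filled points for an adjusted p under 0.05 in limma. Fdft1 in Pcgf5-/- cells at day 6 (0.67) is the only filled point between genotypes.

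Few of these genes differed between the genotypes. At day 0 none of the 7 passed the threshold in limma, where 0.333% of all tested genes did in either direction, and 1 of the 7 had an unadjusted p under 0.05. That gene was Dhcr7, with a log2 fold change of 0.76 for Pcgf5-/- against wild type (SE 0.18, 95% interval 0.35 to 1.17, adjusted p = 0.0825). For Idi1, Fdps and Fdft1 the estimates at day 0 were -0.02, 0.07 and 0.03, with 95% intervals of -0.31 to 0.28 for Idi1, -0.20 to 0.34 for Fdps and -0.26 to 0.33 for Fdft1. Lss was at 0.31 (adjusted p = 0.305), Cyp51 was at 0.23 (adjusted p = 0.513) and Sqle was at -0.20 (adjusted p = 0.496), each with samples that did not overlap between genotypes. Over the tested genes 34.6% had both Pcgf5-/- samples above both wild-type samples at day 0 and 13.3% had them below, against 3 and 1 of the 7.

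At day 6 Fdft1 alone passed the threshold, where 9.57% of all tested genes were higher and 7.05% lower in Pcgf5-/- cells. Mean Fdft1 was 48.5 ± 3.63 FPKM (SD, n = 2) in Pcgf5-/- cells and 30.2 ± 0.202 FPKM (SD, n = 2) in wild type, 1.61 times as high. The log2 fold change was 0.67 (SE 0.13, adjusted p = 0.0138 in limma) and stayed between 0.59 and 0.74 over 18 alternative settings. It passed the threshold in 15 of them and was lost without replicate 1 of wild type (adjusted p = 0.0523), without replicate 2 of wild type (adjusted p = 0.074) and without replicate 1 of Pcgf5-/- cells (adjusted p = 0.0807), all of day 6. Dhcr7 was at 0.45 (SE 0.18, adjusted p = 0.12) and Fdps at 0.29 (SE 0.12, adjusted p = 0.121), and the Pcgf5-/- samples of both lay above those of wild type. Idi1, Sqle, Lss and Cyp51 overlapped between genotypes, with estimates from -0.15 for Cyp51 to 0.03 for Lss and 95% intervals that reached from -0.51 to 0.21 for Cyp51 and from -0.30 to 0.35 for Lss. Both Pcgf5-/- samples were above both wild-type samples in 3 of the 7 genes and in 33.4% of all tested genes, and below them in none of the 7 and in 28.8% of all.

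The genotype effect did not differ between the days in any of the 7 genes at the threshold, where 3.09% of all tested genes differed in either direction, and 1 of the 7, Fdft1, had an unadjusted p under 0.05. The contrasts share samples with each other, so their values for 1 gene are not independent. With median centring Fdft1 passed in this comparison (0.81, adjusted p = 0.0432).

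Fdps had the highest and Lss the lowest level in each of the 4 conditions. At day 0 in wild type the mean ran from Fdps (118 ± 3.32 FPKM, SD, n = 2) through Idi1, Sqle, Fdft1, Cyp51 and Dhcr7 to Lss (8.59 ± 0.309 FPKM). The samples of Idi1 and Sqle overlapped in wild type at day 0 and in both genotypes at day 6, and those of Cyp51 and Dhcr7 overlapped in wild type at day 0. At day 6 in wild type Fdft1 stood in place 6, below Cyp51 and Dhcr7. In cells without Pcgf5 of day 6 Fdft1 stood in place 5, and its samples overlapped with those of Cyp51. Replicates of a condition differed most for Dhcr7 in wild type at day 0, with a coefficient of variation of 23.5%.

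Most other enzymes of the pathway were also higher at day 6 in wild type. Of 15 further enzymes, all tested, 10 were higher and 1 was lower at day 6 in wild type, with a median log2 fold change of 0.73, where 34.2% of all tested genes were higher and 16.2% lower. In Pcgf5-/- cells 6 were higher and 1 was lower, with a median of 0.51, where 21.9% of all tested genes were higher and 10.4% lower. None of the 15 passed the threshold for a difference between these changes. The largest changes in wild type were those of Hsd17b7 (1.34), Mvk (1.12), Sc5d (1.05) and Msmo1 (0.99), enzymes of sterol demethylation, mevalonate phosphorylation, sterol desaturation and sterol methyl oxidation in this order. The 3 further enzymes with the largest changes in Pcgf5-/- cells were Hsd17b7 (0.90), Msmo1 (0.89) and Mvk (0.82), with adjusted p of 0.0127, 0.00365 and 0.00992. Without replicate 1 of day 0 the Hsd17b7 and Mvk calls in Pcgf5-/- cells were lost (adjusted p = 0.0801 and 0.0517), as was that of Hsd17b7 without replicate 1 of day 6 (adjusted p = 0.0756) and that of Mvk without replicate 2 of day 6 (adjusted p = 0.0643).

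Ebp, the sterol isomerase, was the only one of the 22 measured enzymes that passed the threshold as lower at day 6. It was at 18.6 and 24.8 FPKM in wild type at day 0 and at 12.9 and 13.4 FPKM at day 6, and at 26.4 and 23.8 FPKM in Pcgf5-/- cells at day 0 and at 15.1 and 18.3 FPKM at day 6. The samples of both days did not overlap in either genotype. Over all tested genes, both samples of day 6 lay below both samples of day 0 in 28.1% in wild type and 25.1% in Pcgf5-/- cells. Ebp fell by 0.67 on the log2 scale (adjusted p = 0.0129 in limma) in wild type and by 0.56 (adjusted p = 0.0391) in Pcgf5-/- cells. The wild-type call was lost without replicate 2 of day 0 (adjusted p = 0.0777) or either wild-type sample of day 6 (adjusted p = 0.0596 and 0.0505), and the Pcgf5-/- call in 8 of 18 alternative settings, among them the omission of any one Pcgf5-/- sample (adjusted p from 0.063 to 0.179). Lbr, a sterol reductase gene, had a log2 fold change of -0.35 (adjusted p = 0.157) in wild type and Tm7sf2, another, of -0.56 (adjusted p = 0.119) in Pcgf5-/- cells, both with samples of day 6 below those of day 0. Lbr passed with median centring (adjusted p = 0.0177) and with the replicate block across both days (adjusted p = 0.0444), and Tm7sf2 with the replicate block for each day (adjusted p = 0.0167) and without replicate 2 of Pcgf5-/- cells at day 0 (adjusted p = 0.0322). In wild type Tm7sf2 went the other way, from 6.17 and 4.61 FPKM at day 0 to 9.11 and 9.94 FPKM at day 6. It passed the threshold there as higher (log2 fold change 0.73, adjusted p = 0.0376 in limma). That wild-type call was lost in 9 of 18 alternative settings. Ebp, Lbr and Tm7sf2 are named here after their values were seen. Between genotypes none of the 15 enzymes passed the threshold at day 0 or at day 6. Of all 22 measured enzymes, 16 were higher and 1 lower in wild type and 12 were higher and 1 lower in Pcgf5-/- cells. With median centring these counts were 9 higher and 3 lower in wild type and 8 higher and 1 lower in Pcgf5-/- cells. Of all 13214 tested genes, 6921 were then called in wild type, 2745 of them higher, and 4077 in Pcgf5-/- cells, 1960 of them higher. Without replicate 1 of wild type at day 6, fewer of the 22 enzymes and fewer of all tested genes were called higher in wild type. The same held in Pcgf5-/- cells without their replicate 2 of day 0.

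**Figure D3:**
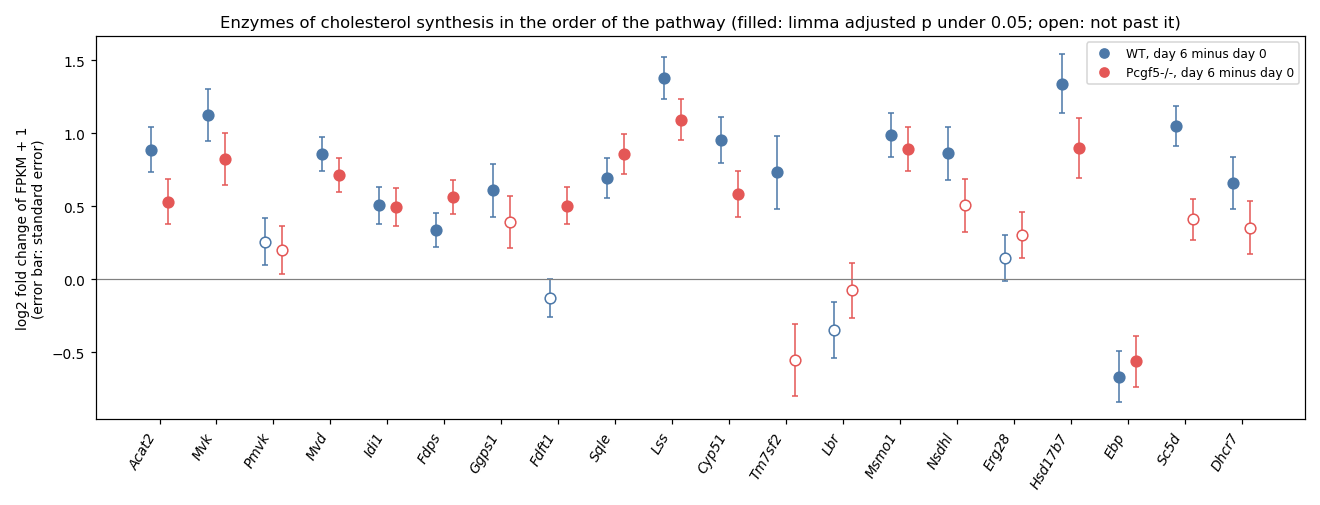
Log2 fold change of FPKM + 1 from day 0 to day 6 for 20 of the measured enzymes in the order of the pathway, with error bars for the standard error, blue for wild type, red for Pcgf5-/- cells and filled points for an adjusted p under 0.05 in limma. Most points lie above 0, with Ebp and Lbr below 0 in both genotypes and Lss highest in each.

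Among the regulators, Srebf2, which encodes the SREBP factor that acts mainly on cholesterol genes, was at 33.2 and 33.4 FPKM at day 0 and at 57.5 and 59.0 FPKM at day 6 in wild type. In cells without Pcgf5 Srebf2 was at 29.1 and 38.5 FPKM at day 0 and at 62.1 and 47.3 FPKM at day 6. It rose by 0.79 on the log2 scale (SE 0.17, adjusted p = 0.00593 in limma) in wild type and by 0.68 (SE 0.17, adjusted p = 0.0194) in Pcgf5-/- cells. With median centring the adjusted p was 0.0603 in wild type and 0.0532 in Pcgf5-/- cells, and the second call was also lost without replicate 1 of day 0 (adjusted p = 0.123) or of day 6 (adjusted p = 0.106) of Pcgf5-/- cells. Scap rose in wild type by 0.96 (adjusted p = 0.00887) and was at 0.37 (adjusted p = 0.251) in Pcgf5-/- cells, and the difference between these changes did not pass (-0.59, adjusted p = 0.311). The Scap call was lost without replicate 1 of wild type at day 0 (adjusted p = 0.0573) or replicate 2 at day 6 (adjusted p = 0.061). Insig1 was at 0.25 (adjusted p = 0.331) in wild type and at 0.31 (adjusted p = 0.273) in Pcgf5-/- cells. Of the 7 genes of SREBP processing and sterol sensing, 2 were higher in wild type, 1 was higher in Pcgf5-/- cells and none was lower, shares under the 34.2% and 21.9% of all tested genes that were higher. With median centring 1 was higher and 2 were lower in wild type and none was called in Pcgf5-/- cells. Of all 13214 tested genes, 6921 were then called in wild type, 2745 of them higher, and 4077 in Pcgf5-/- cells.

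Srebf1, whose SREBP products act mainly on fatty acid genes, was the only one of these 7 genes that passed the threshold between genotypes. On day 0 its FPKM values were 13.1 and 15.3 in wild type against 22.9 and 27.8 in the mutant, a log2 fold change of 0.79 (adjusted p = 0.0711 in limma). On day 6 they were 17.9 and 18.6 in wild type against 24.9 and 31.3 in the mutant, a log2 fold change of 0.59 (SE 0.17, adjusted p = 0.0467). This call was lost in 13 of 18 alternative settings, among them the omission of any one of the 8 samples (adjusted p from 0.0539 to 0.201). Srebf1 lies on chromosome 11, whose tested genes had a median log2 fold change between genotypes of 0.48 at day 0 and 0.38 at day 6. Chromosome 6 stood apart likewise, at 0.41 and 0.37, whereas other chromosomes had medians of 0.04 to 0.12 on day 0 and of -0.06 to 0.03 on day 6. None of the 7 measured cholesterol synthesis genes lies on chromosome 6 or 11. The part of this chromosome-wide difference in the Srebf1 value was not tested.

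**Figure D4:**
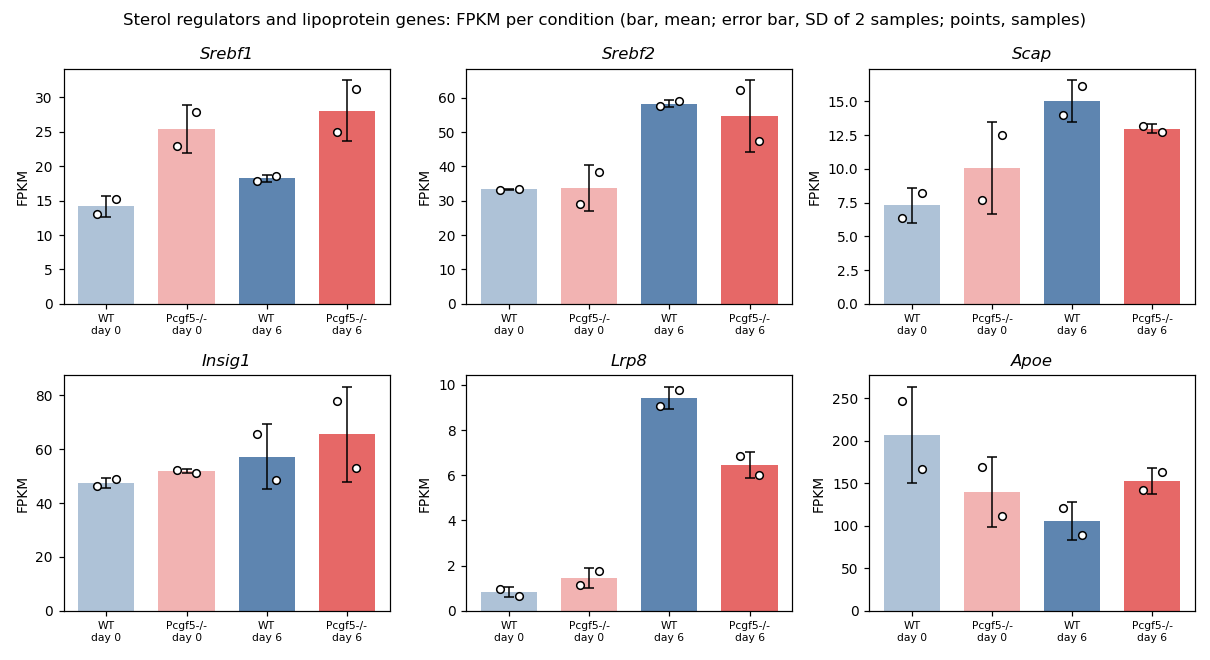
FPKM of sterol regulators and lipoprotein genes in each condition, with bars for the mean, error bars for the SD of 2 samples and points for the samples. Srebf2 and Lrp8 are higher at day 6 in both genotypes, and both Pcgf5-/- samples of Srebf1 lie above both wild-type samples at each day.

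Among genes of sterol uptake, trafficking and export, the shares called were near those of all tested genes. In wild type 4 of the 14 tested genes were higher and 3 lower at day 6, against 34.2% and 16.2% of all, and in Pcgf5-/- cells 4 were higher and 2 lower, against 21.9% and 10.4%. With median centring these counts were 3 and 5 in wild type and 2 and 2 in Pcgf5-/- cells. Of all 13214 tested genes, 6921 were then called in wild type, 2745 of them higher, and 4077 in Pcgf5-/- cells, 1960 of them higher. Lrp8, a lipoprotein receptor that also binds reelin, went from 0.968 and 0.651 FPKM to 9.07 and 9.78 FPKM in wild type, a log2 fold change of 2.53 (adjusted p = 4.56e-05 in limma), and its log2 fold change in Pcgf5-/- cells was 1.62 (adjusted p = 0.00109). Soat1, which esterifies cholesterol, rose by 2.11 in wild type and 1.03 in Pcgf5-/- cells. With quantile normalization the Soat1 call in Pcgf5-/- cells was lost (adjusted p = 0.064), as it was with median centring and without replicate 1 of day 0, replicate 2 of day 0 or replicate 1 of day 6 (adjusted p = 0.101, 0.0923 and 0.152). Apoe, a lipoprotein component, fell by 0.96 in wild type (adjusted p = 0.0142 in limma). The Apoe call was lost without replicate 1 of day 0 (-0.68) or replicate 2 of day 6 (-0.74). Abca1, a cholesterol exporter, fell by 1.59 in Pcgf5-/- cells (adjusted p = 0.00163), from 3.56 and 3.07 FPKM to 0.414 and 0.456 FPKM. In wild type Abca1 also fell without overlap, from 2.75 and 1.69 FPKM to 0.872 and 0.520 FPKM. None of the 14 genes passed the threshold for a difference between the changes of the genotypes. At day 6 Nr1h2, a sterol-sensing nuclear receptor gene, was higher in Pcgf5-/- cells by 0.81 (SE 0.15, adjusted p = 0.0137), the only one of the 14 to pass between genotypes. That call was lost without replicate 1 of wild type (adjusted p = 0.0633) or either Pcgf5-/- sample of day 6 (adjusted p = 0.0796 and 0.051).

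Most of the 7 genes varied alike over the 8 libraries, which is a description that rests on their shared change over the days. Pearson's r of each gene with the mean of the other 6 was 0.95 for Lss, 0.93 for Fdps, 0.88 for Idi1, 0.87 for Cyp51, 0.86 for Sqle, 0.65 for Dhcr7 and 0.47 for Fdft1. Of the 9824 other genes with a mean of at least 5 FPKM in some condition, the 10 most like the mean pattern of the 7 were 1700052K11Rik (r = 0.993), Mtap7d3, Plekha5, Inadl, Stx16, Snhg11, Thap6, Map9, Fggy and Sema3e (r = 0.983). Fads2, a fatty acid desaturase gene, stood at place 13 and the mevalonate decarboxylase gene Mvd at place 41. Npc1 followed at place 150 and Msmo1 at place 167, and none of the 10 closest genes is an enzyme of the pathway. Ebp had an r of -0.70 with the mean pattern.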

How the data were processed

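RNA-seq libraries of 8 samples were compared. The authors trimmed reads, removed identical reads, aligned pairs to mm9 and deposited FPKM values per gene from Cufflinks (TopHat2 2.0.4 and Cufflinks 2.1.1 in the submitters' processing notes); the annotation and library strandedness are not given in the sources used here. Removing identical reads can lower the values of abundant transcripts. Conditions came from the labels. Log2(FPKM + 1), which understates changes of low genes, was fitted for all 8 samples with limma 3.58.1 (R 4.3.3, 1 mean per condition, variance trend, no block, two-sided, Benjamini-Hochberg over 13214 genes, threshold 0.05). The fit was also run on simulated data with independent noise in each sample, which does not cover shifts of whole libraries or correlated replicates. P-values measure only the spread between 2 samples per condition, described as biological replicates. Named were all members, up to 4 called genes with the largest change per list and comparison, fixed regulators and the 10 genes most like the mean pattern. Members and lists were chosen with earlier results of these data known. Alternatives were other pseudocounts, filters, scalings, replicate blocks, fits without the trend or of the compared conditions alone, and leaving out each sample. Deviations of same-numbered samples from the condition means correlated at 0.39 between genotypes at day 6 and at 0.10 at day 0. Across the days these correlations ran from -0.08 to -0.02. Whether replicate numbers pair samples within a day is not known. Some measured genes are not reported here by name.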

Additional observations from a re-analysis of the deposited data

How the results depend on the processing

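Counts of the 7 measured genes changed little with pseudocounts, filters, quantile normalization, the variance trend or the samples in the fit. With median centring they were 3 in wild type, 3 in Pcgf5-/- cells and 1 for the difference of genotype effects, and Fdps in wild type reversed to -0.025 (adjusted p = 0.868). The centring shifts all genes of a library by the same amount, so that it lowered the changes over the days and raised the difference of genotype effects. With the replicate number as a block for each day, 1 gene passed between genotypes at day 0 (Dhcr7, adjusted p = 0.0487) and 2 at day 6 (Fdft1 and Dhcr7, the latter with adjusted p = 0.0451). That block called 282 of all 13214 tested genes at day 0 and 3235 of them at day 6. The replicate block across both days left the counts at 6, 6, 0, 1 and 0. Deviations of same-numbered samples correlated at 0.39 between the genotypes at day 6 and at 0.10 at day 0. Across the days the correlations ran from -0.08 to -0.02. Whether samples are paired within a day is not known, so the calls with a block for each day stand beside those without it. Leaving out 1 sample in turn gave 4 to 6 genes in wild type, 2 to 6 in Pcgf5-/- cells, 0 to 0 between genotypes at day 0, 0 to 1 at day 6 and 0 to 0 for the difference of effects. Among all tested genes, 6668 calls in wild type ranged from 4702 to 7069 over the alternatives, 4271 in Pcgf5-/- cells from 2367 to 4584, 44 between genotypes at day 0 from 0 to 282, 2197 at day 6 from 297 to 3235 and 408 for the difference of effects from 4 to 1167. With quantile normalization 57.7% and with median centring 70.0% of the calls for that difference were higher, against 43.4%, and none of the 3 and 2 calls at day 0 were higher, against 86.4%. The cause of these shifts was not tested. The files hold no fragment counts, so depth sets no stated limit here.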

Other observations

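Of 13 genes of fatty acid synthesis, 4 were higher and 4 lower at day 6 in wild type, against 34.2% and 16.2% of all tested genes, with the desaturase genes Fads1 (1.26) and Fads2 (0.96) and the carboxylase gene Acaca (0.81) highest on the log2 scale, while the malic enzyme gene Me1 fell by 1.06. In the mutant 3 were higher and 1 lower, against 21.9% and 10.4% of all, with Fads2 at 1.06, Fads1 at 0.91, Acaca at 0.77 and Me1 at -0.55. The Acaca calls were lost in 6 of 18 alternative settings in wild type and in 13 of 18 in Pcgf5-/- cells, among them with quantile normalization (adjusted p = 0.0602 in wild type and 0.0603 in Pcgf5-/- cells) and without several single samples (highest adjusted p 0.154 and 0.268). Between genotypes at day 6, Acacb (1.04), Me1 (0.80) and Elovl6 (0.55) were higher in Pcgf5-/- cells. Each of these 3 calls was lost without replicate 2 of wild type or replicate 1 of Pcgf5-/- cells at day 6 (adjusted p from 0.0833 to 0.128), and the fall of Me1 in Pcgf5-/- cells was lost in 9 of 18 alternative settings, among them the omission of any 1 sample of that genotype (adjusted p from 0.0656 to 0.191).

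Branches that leave the pathway were also measured. Of 10 genes of the isoprenoid branch, Coq2 (1.21) and Dhdds (1.07), which serve ubiquinone and dolichol synthesis, rose in wild type, and the prenyltransferase subunit genes Rabggtb (-1.11) and Fntb (-0.47) fell, so that 2 were higher and 2 lower, against 34.2% and 16.2% of all tested genes. With median centring 2 were higher and 6 lower in wild type, where 6921 of all 13214 tested genes were called, 2745 of them higher. In Pcgf5-/- cells Rabggtb (-0.62) and Nus1 (-0.60) fell and none rose, where 10.4% of all tested genes were lower and 21.9% higher. The Nus1 call was lost without any 1 sample of Pcgf5-/- cells, that of Rabggtb without replicate 1 of day 0 (adjusted p = 0.0671), and that of Fntb in 12 of 18 alternative settings, with the highest adjusted p (0.276) without replicate 1 of wild type at day 6. Cyp46a1, the neuronal cholesterol hydroxylase gene, was below 0.2 FPKM in the libraries of day 0. On day 6 it was at 1.95 and 3.30 FPKM in wild type and at 0.430 and 0.836 FPKM in Pcgf5-/- cells. The mutant was lower by 1.14 (log2 fold change -1.14, adjusted p = 0.0152 in limma). This call was lost without replicate 2 of wild type (-0.87) or replicate 1 of Pcgf5-/- cells (-0.96) of day 6. Only wild type of day 6 had a mean above 1 FPKM. Cyp46a1 was thus tested through that group alone, and its call is not independent of the filter. Ch25h, another cholesterol hydroxylase gene, was at 1.28 and 2.89 FPKM in Pcgf5-/- cells at day 0 and at 0 in both samples of day 6. It fell there by 1.57 (adjusted p = 0.0123 in limma). The Ch25h call was lost without replicate 2 of day 0 (-1.19) or either sample of day 6 (-1.57). Only Pcgf5-/- cells of day 0 had a mean above 1 FPKM. Ch25h was thus tested through that group alone, and its call is not independent of the filter. Cyp39a1 rose in both genotypes (0.68 and 0.58), and these calls were lost in 6 of 17 alternative settings in wild type and in 11 of 17 in Pcgf5-/- cells, quantile normalization and median centring among them.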
